A study of Mus musculus with 20 samples.

Results

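The 3′UTRs described here are those that took a smaller share of the sequenced RNA when AGO2 was precipitated from mouse hippocampus than in the background precipitate of mice without tagged AGO2. They were chosen among 38158 annotated 3′UTRs in 2 steps. A 3′UTR needed at least 10 counts in each of 8 RIP-seq libraries, which 8203 had, and its CPM (counts scaled to the library's total) had to average less than 0.4 of the sham mean in the miR-292 sponge libraries. This left 1166 3′UTRs of 1101 named genes, or 14.2% of the 8203, and 12 of the 1166 had no gene name. These 3′UTRs were chosen by the ratio of miR292sp to sham, so the ratio is given as a description throughout, with no test.

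The mice were adult male C57BL/6 animals. For RIP-seq, GFP-tagged AGO2 was brought into hippocampal neurons with an AAV5 vector under the human synapsin promoter, together with a sponge, a transcript with repeated imperfect binding sites that occupies 1 miRNA. The sponge was for miR-292, a miRNA not present in brain and used as the control (miR292sp), for miR-124 (miR124sp) or for miR-125 (miR125sp). Sham-injected mice, which carry no GFP-AGO2, gave the background of the anti-GFP beads. Each of the 4 groups had 2 libraries, each from the pooled lysate of 2 hippocampi, of polyadenylated RNA read over 50 bases. For mRNA-seq, whole hippocampus was taken from single mice: 3 with AAV5-GFP.miR124sp and 3 with AAV5-GFP, and in another experiment 3 with AAV5-GFP.miR125sp and 3 other mice with AAV5-GFP. The RIP libraries held 2417942 to 5072501 counts and the mRNA libraries 6950522 to 27833176.

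AGO2 is the protein that holds a mature miRNA and, guided by the miRNA's seed, binds matching sites that lie mostly in 3′UTRs, which lowers translation and stability of the target. RNA that is pulled down with AGO2 is therefore rich in miRNA targets, while RNA of genes without bound AGO2, or of cells that do not make the tagged protein, enters the precipitate as background. miR-124 and miR-125 are abundant in neurons. In a precipitate of bulk tissue, fewer cells of a type and less RNA per cell cannot be told apart.

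The word depleted depends on the scale. With TMM, which sets libraries on the bulk of 3′UTRs, 1018 of the 1166 (87.3%) stayed below 0.4, as with library totals. The study scaled its libraries on Gapdh and its neighbours by ratio, 50 3′UTRs above and 50 below, and all of these were among the 1166. On that scale, the Gapdh scale, the limit of 0.4 became 1.09, the median ratio of the 1166 was 0.855, 941 of them (80.7%) lay below 1, and 66 lay below 0.5. They are called low-ratio 3′UTRs here, since on the Gapdh scale they were close to the reference rather than far under it. The 3′UTR of the glycolytic enzyme Gapdh had 48.5 and 86.9 CPM in sham and 21.5 and 26.7 CPM in miR292sp, a ratio of 0.356.

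The sequences that the seed searches turned on are given first, because a smaller share of the low-ratio 3′UTRs than of others held the matches for most of them. Mature miRNAs come from RefSeq (GRCm38.p6), 5′ to 3′, with the seed, bases 2 to 8, in capitals. miR-124 and miR-292 are named only, with GTGCCTT and GGCACTT as the 7-letter DNA motifs searched for them.
mmu-miR-125b-5p: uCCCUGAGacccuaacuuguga
mmu-let-7a-5p: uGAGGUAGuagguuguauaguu
mmu-miR-21a-5p: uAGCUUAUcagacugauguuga

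Among the most abundant low-ratio 3′UTRs, some hold a match all the same. The sites below, in mm9 and on the strand of the gene, show the match in capitals with 10 bases on each side. Positions within the 3′UTR count from 1 at its first base, and the coordinates are those of the printed sequence. In Clip3 the miR-124 match is at bases 663 to 669 (chr7:31092532-31092558, plus strand) and the miR-125 match at 1041 to 1047 (chr7:31092910-31092936, plus strand). In Sema5a the miR-124 match is at 5228 to 5234 (chr15:32624388-32624414, plus strand), in Lars2 the miR-125 match is at 133 to 139 (chr9:123370919-123370945, plus strand), and in Slc1a2, which holds 2 miR-125 matches, the one shown is at 4782 to 4788 (chr2:102626463-102626489, plus strand).
Clip3, miR-124: gaaacccccaGTGCCTTgtatgaagcc
Clip3, miR-125: ttgccaggctCTCAGGGcatctcaaac
Sema5a, miR-124: aaagttgctaGTGCCTTttataagcta
Lars2, miR-125: ctaaggcgagCTCAGGGaggacagaaa
Slc1a2, miR-125: ggtgattttgCTCAGGGaaatgttctg

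The ratio of the 1166 3′UTRs ranged from 0.0583 to the limit, with a median of 0.313 and quartiles of 0.260 and 0.360, where all 8203 had a median of 0.876. In sham they were near the usual level, with a median of 36.2 CPM against 39.4 CPM for all. In miR292sp their median was 10.5 CPM against 38.8 CPM. A further 1115 3′UTRs had at least 10 counts in both sham libraries but fewer in another library, and so failed the filter. These medians describe only 3′UTRs that passed it. Taking 1 sham and 1 miR292sp library at a time, all 4 pairs gave a ratio below the limit for 439 (37.7%), 3 pairs for 363 and 2 pairs for 364. Counts were low for many: 53.9% had fewer than 50 counts in a miR292sp library, against 20.7% of all, and the median absolute log2 difference between the miR292sp libraries was 0.38 against 0.26. Just inside the limit were Zfp330 at 0.399, Negr1 at 0.3995 and Stxbp4 at 0.4 after rounding, and just outside it Lonp2 at 0.4001, Sema3e at 0.4006 and Nalcn at 0.4007, so the limit cuts through a continuous range.

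**Figure D1:**
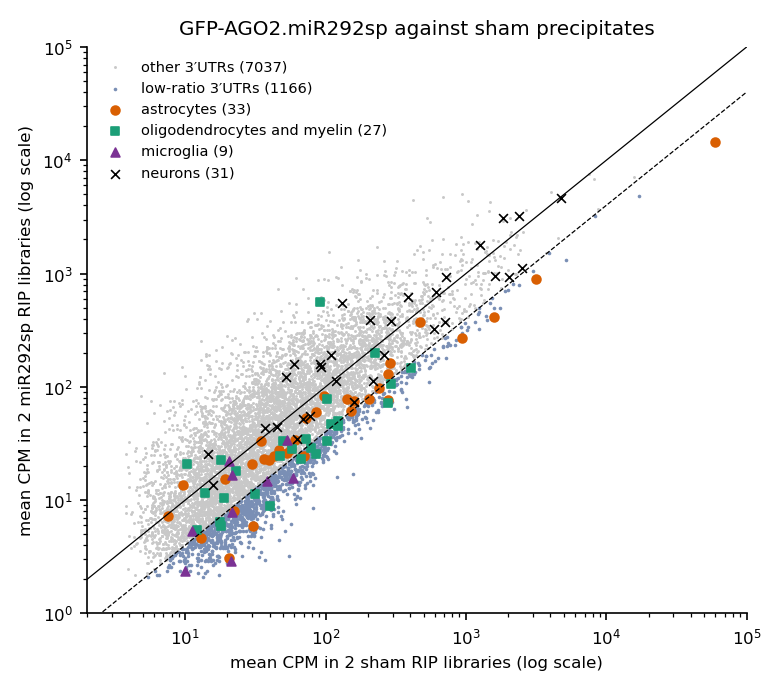
Mean CPM in the 2 sham libraries (x axis, log scale) against mean CPM in the 2 miR292sp libraries (y axis, log scale) for the 8203 3′UTRs. The 1166 low-ratio 3′UTRs are in grey-blue. Markers of astrocytes, oligodendrocytes, microglia and neurons have their own colours and symbols, and not all of them are low-ratio. The low-ratio 3′UTRs lie under the line of ratio 0.4 over the whole range of sham levels, from 5.45 CPM to Slc1a2 at 59840 CPM.

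The largest single member was Slc1a2, the glutamate transporter of astrocytes. Its 9250-base 3′UTR (chr2:102621689-102630941, plus strand, coordinates including the stop codon) held 175666 and 144443 counts in the sham libraries. It held 71322 and 74312 counts with miR292sp, 151978 and 121658 with miR124sp, and 109690 and 125004 with miR125sp. As a share of all counts this was 5.99% and 5.97% in sham, 1.41% and 1.49% with miR292sp, 4.15% and 4.13% with miR124sp, and 3.27% and 3.52% with miR125sp. The rule itself set miR292sp under sham. Both sponge groups lay between them, as for most members: 93.5% were above miR292sp in both sponge groups and 94.3% below sham. Of all 3′UTRs these were 42.5% and 47%.

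Summed, the 1166 3′UTRs made up 21.7% and 22.0% of each sham library and 6.28% and 6.66% of each miR292sp library. Without Slc1a2 these shares were 15.7% and 16.0% against 4.87% and 5.17%. The next most abundant after Slc1a2 was Clip3, a CAP-Gly protein of microtubules and membrane traffic (chr7:31091877-31093386, plus strand), at 17460 and 16990 CPM in sham and 4196 and 5563 CPM with miR292sp, a ratio of 0.283. Lars2, the mitochondrial leucyl-tRNA synthetase (chr9:123370794-123371782, plus strand), had 7584 and 9050 CPM in sham but 4080 and 2408 CPM with miR292sp. Its ratio of 0.390 rested on the second of these libraries, and rose to 0.415 with TMM scaling, above the limit. Srrm2, a protein of the spliceosome, had a ratio of 0.252 and Basp1, a membrane protein of growth cones and nerve endings, 0.351. Others of the 10 highest in sham were Lsamp (0.385), an adhesion protein of limbic neurons, Sema5a (0.334), a transmembrane semaphorin, Atp6v1g2 (0.371), a subunit of the vesicular proton pump, and Tmx4 (0.360), a thioredoxin-related membrane protein. The most abundant members therefore include a gene of astrocytes and genes of neurons.

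The lowest ratio was that of a 1222-base 3′UTR of Pcgf3, a Polycomb group protein (chr5:108917019-108918243, plus strand). It had 162 and 131 counts in sham, 11 and 21 with miR292sp, 78 and 57 with miR124sp, and 90 and 295 with miR125sp. Its ratio was 0.0583, and its miR125sp libraries stood apart from each other at 26.8 and 83.1 CPM. The 6572-base 3′UTR of the same gene, with 207 CPM in sham, was not a member, at 2.955. Arhgap18, a GTPase-activating protein, had 0.0950. Others of the 10 lowest were Secisbp2l (0.0954), Fahd2a (0.0997), Acsf2 (0.104), an acyl-CoA synthetase of mitochondria, Gfm2 (0.104), a mitochondrial translation factor, 1700049G17Rik (0.109), Ttr (0.109) and Ddx26b (0.125). The Secisbp2l value is that of a 1010-base 3′UTR, and a 3279-base 3′UTR of that gene had 1.231. For some members the sham libraries themselves lay far apart: Cldn1, a tight junction protein, had 95.5 and 5.79 CPM, 2610002I17Rik 66.2 and 5.38 CPM, Adat3 3.75 and 31.4 CPM, and Taf1c 9.21 and 81.5 CPM. For Hsd17b4, a peroxisomal enzyme, the sham counts were 15 and 94.

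On each list of markers of non-neuronal cells, a larger share was low-ratio than of all 3′UTRs, while no marker on the neuron list was low-ratio. These are shares of each list, and do not give the make-up of the low-ratio 3′UTRs, most of which were on none of these lists. Of the measured 3′UTRs on each list, 11 of 33 of astrocytes (33.3%) were members, 12 of 27 of oligodendrocytes and myelin (44.4%), 5 of 9 of microglia (55.6%), 2 of 4 of endothelial and mural cells (50%), 2 of 5 of choroid plexus and ependyma (40%) and 0 of 31 of neurons, beside 14.2% of all 3′UTRs. The median ratios were 0.502, 0.432, 0.384, 0.382, 0.425 and 1.130 in the same order, beside 0.876 for all. On the Gapdh scale membership all but vanished for every list, with 21 3′UTRs of any kind below 0.4. The lowest neuron marker was Slc17a7, the vesicular glutamate transporter of excitatory cells, at 0.449. Kif5a, a kinesin of neurons, had 5418 and 4128 CPM in sham and 4232 and 5070 CPM with miR292sp, groups that overlap. At a limit of 0.3, which 6.03% of all 3′UTRs met, the shares were 21.2% of astrocyte, 11.1% of oligodendrocyte, 33.3% of microglia and 0% of neuron markers. No test was made of these shares, since the ratio chose the members.

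**Figure D2:**
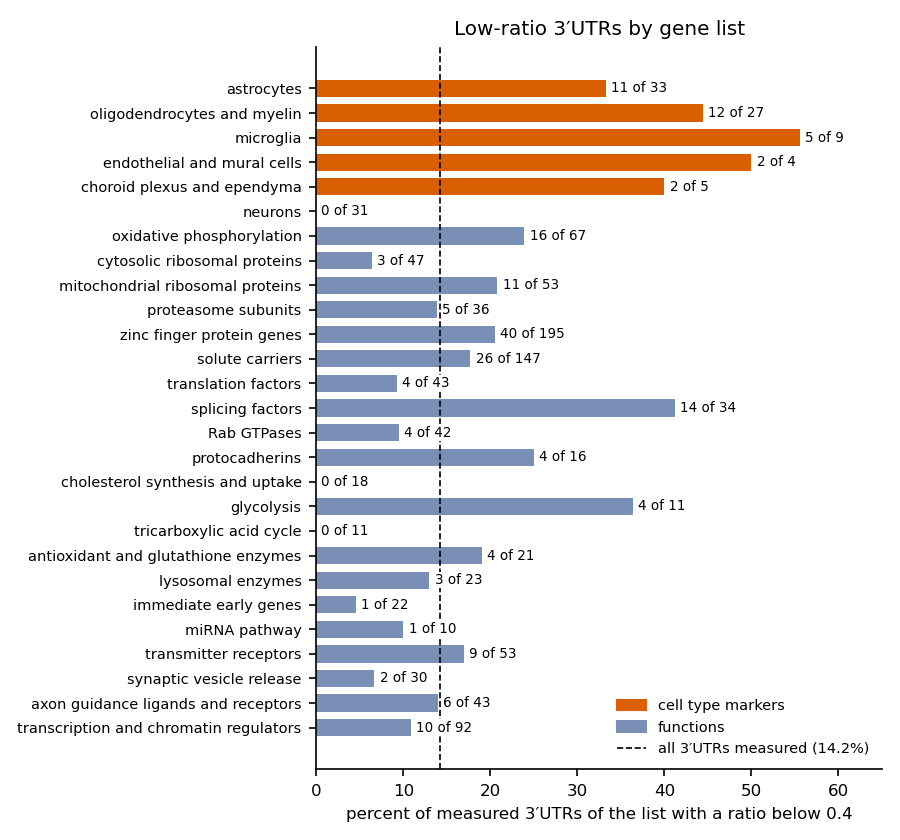
Share of the measured 3′UTRs of each cell type and function list that were low-ratio (x axis, percent), with the number of members of the number measured, and the 14.2% of all 3′UTRs as a dashed line. The 5 lists of non-neuronal cell types lie between 33.3% and 55.6%, and the neuron list is at 0.

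Among the astrocyte genes, Aqp4, the water channel of astrocyte endfeet, went from 1561 and 1586 CPM in sham to 438 and 383 CPM with miR292sp, with 1452 and 1248 CPM in miR124sp and 1086 and 1090 CPM in miR125sp. The order of the group means was that of Slc1a2: miR292sp lowest, then miR125sp, miR124sp and sham. Slc1a3, the other glutamate transporter of astrocytes (chr15:8584124-8586134, minus strand), had a ratio of 0.285, Gja1, the gap junction protein connexin 43, 0.278, and Slc14a1, a urea transporter, 0.386. Some abundant astrocyte genes were not members. Glul, the glutamine synthetase, had 487 and 461 CPM in sham and 362 and 381 CPM with miR292sp, a ratio of 0.785, and Ndrg2 had 0.564. As a sum over the list, astrocyte markers made up 6.82% and 6.89% of the sham libraries, 1.72% and 1.82% with miR292sp, 4.83% and 4.84% with miR124sp, and 3.86% and 4.11% with miR125sp. Most of this was Slc1a2. Without it the list made up 0.827% and 0.915% of the sham libraries, 0.314% and 0.329% with miR292sp, 0.676% and 0.706% with miR124sp, and 0.590% and 0.588% with miR125sp.

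Among the genes of oligodendrocytes, Gjc3, a connexin of these cells, had 271 and 287 CPM in sham and 55.4 and 89.8 CPM with miR292sp, a ratio of 0.260. With miR124sp it had 117 and 211 CPM and with miR125sp 118 and 203 CPM, between the other groups. Tspan2, a tetraspanin of myelinating cells, had a ratio of 0.360, Mal, a proteolipid of compact myelin, 0.371, Ermn, a cytoskeletal protein of myelin, 0.327, and Gpr17, a receptor of their precursors, 0.298. Mobp lay just above the limit at 0.411, and Car2, carbonic anhydrase 2, at 0.894 with sham libraries at 149 and 300 CPM. The highest ratio of the list, 6.14, was that of the 3935-base 3′UTR of Mbp, myelin basic protein, named after its value was seen, while a 1245-base 3′UTR of the same gene was a member at 0.36. The list's summed share was 0.241% and 0.262% in sham and 0.161% and 0.171% with miR292sp.

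The microglia list had few measured genes and low counts. Olfml3 had 57.0 and 60.4 CPM in sham and 17.0 and 14.2 CPM with miR292sp. Cd53, a tetraspanin of leukocytes, had 45.7 and 31.4 CPM in sham, 14.4 and 15.2 CPM with miR292sp, but 90.4 and 31.6 CPM with miR124sp and 38.5 and 75.2 CPM with miR125sp, so that 1 library of each sponge lay above both sham libraries. Ly86 had a ratio of 0.367 and Laptm5 of 0.135. Cx3cr1, the fractalkine receptor, was not a member at 0.630, nor was Cyth4 at 0.775. The list's summed share was 0.0270% and 0.0243% in sham and 0.0112% and 0.0131% with miR292sp. Of the vascular genes, Rgs5 of pericytes had 412 and 376 CPM in sham and 110 and 147 CPM with miR292sp, and Slco1a4, a transporter of brain endothelium, 62.4 and 101.3 CPM against 16.6 and 10.8 CPM. Slc2a1, the glucose transporter, had a ratio of 0.870 and Cdh5, VE-cadherin, 0.438. The list's share was 0.0539% and 0.0534% in sham and 0.0171% and 0.0210% with miR292sp. For neurons the summed share was 2.26% and 2.04% in sham and 2.07% and 2.23% with miR292sp, which overlap. Whether the cell type in which a gene is expressed sets its ratio was not tested.

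Among genes of choroid plexus, Ttr, transthyretin, the abundant secreted protein of choroid plexus epithelium, had 718 and 167 counts in sham, 100 and 72 with miR292sp, 146 and 70 with miR124sp, and 1208 and 1046 with miR125sp. In CPM this was 245 and 69.1, 19.7 and 14.4, 39.9 and 23.8, and 360 and 295, so that both miR125sp libraries lay above every other library. It was the only low-ratio 3′UTR that differed between miR124sp and miR125sp, a comparison whose libraries enter the rule only through the filter on counts (log2 fold change −3.32, standard error 0.46, adjusted p = 0.00956 with edgeR's quasi-likelihood test on 2 libraries a group). Of all 8203 3′UTRs, 0.0122% were lower with miR124sp in this sense and 0.0% higher, and of the 1166, 1 was lower and 0 higher. Leaving out any 1 of the 4 libraries took the call away (adjusted p from 0.0559 to 0.742). At an unadjusted p below 0.05 were 84 of the 1166 (7.2%) and 430 of the 8203 (5.24%), and the median log2 difference was 0.18 for the 1166 and 0.01 for all. Foxj1, the transcription factor of ciliated cells, had a ratio of 0.324, and Kl (0.614) and Prlr (0.425) were not members. In the mRNA of single mice Ttr also varied within every group: it had 3350, 62.9 and 1386 CPM per kb in the GFP mice of the miR-124 experiment and 20.4, 31.7 and 1760 with miR124sp, 1020, 37.7 and 724 in the other GFP mice and 21.7, 1212 and 31.5 with miR125sp. The list's summed share in the RIP was 0.0454% and 0.0184% in sham, 0.0115% and 0.00802% with miR292sp, 0.0163% and 0.0126% with miR124sp, and 0.0550% and 0.0426% with miR125sp.

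**Figure D3:**
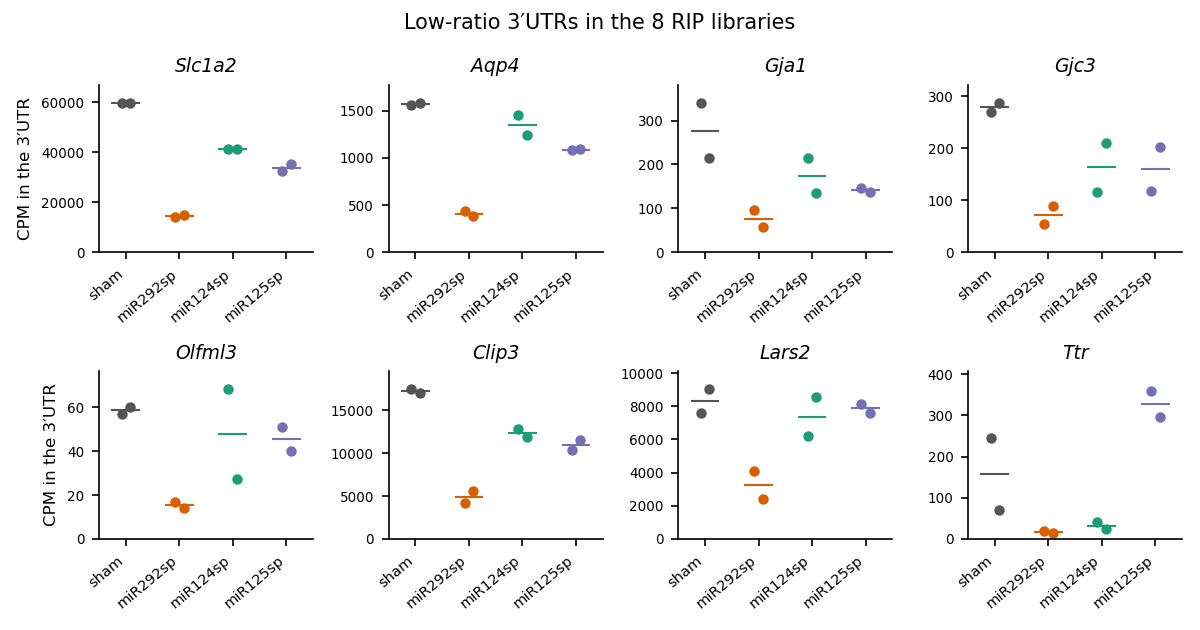
CPM (y axis, linear from 0) in each of the 8 RIP libraries, by group, for selected 3′UTRs, one point per library. Lines are group means. In Slc1a2 and Aqp4 miR292sp is lowest and both sponge groups lie between it and sham, while Ttr is highest with miR125sp.

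By function, the share of members was above that of all 3′UTRs for splicing factors (14 of 34, 41.2%), glycolysis (4 of 11, 36.4%), protocadherins (4 of 16, 25%), oxidative phosphorylation (16 of 67, 23.9%), mitochondrial ribosomal proteins (11 of 53, 20.8%), zinc finger protein genes (40 of 195, 20.5%), antioxidant and glutathione enzymes (4 of 21, 19.0%), solute carriers (26 of 147, 17.7%) and transmitter receptors (9 of 53, 17.0%). Axon guidance (6 of 43, 14.0%), proteasome subunits (5 of 36, 13.9%) and lysosomal enzymes (3 of 23, 13.0%) lay near it. Below it were transcription and chromatin regulators (10 of 92, 10.9%), the miRNA pathway (1 of 10, 10.0%), Rab GTPases (4 of 42, 9.52%), translation factors (4 of 43, 9.30%), synaptic vesicle release (2 of 30, 6.67%), cytosolic ribosomal proteins (3 of 47, 6.38%) and immediate early genes (1 of 22, 4.55%). The tricarboxylic acid cycle had 0 of 11 with a median ratio of 0.571, and cholesterol synthesis and uptake 0 of 18 with 0.919. At a limit of 0.3 oxidative phosphorylation fell under the 6.03% of all, with 4.48%, while splicing factors had 17.6% and zinc finger protein genes 11.3%.

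Of the splicing factors, Hnrpdl had a ratio of 0.277, Sf3b1, a core subunit of the U2 particle, 0.324, and Srsf1 0.373, and 5 of the 14 were 3′UTRs of transcripts annotated for nonsense-mediated decay. The respiratory chain members include Uqcr10 and Uqcrh of complex III and Cox4i1 of cytochrome oxidase. Uqcr10 had 195 and 197 CPM in sham, 67.6 and 78.2 CPM with miR292sp, 86.0 and 148 CPM with miR124sp, and 109 and 123 CPM with miR125sp. Cox4i1 had a ratio of 0.371, Uqcrh 0.359, Atp5j2 0.305 and Sdhd 0.320. Of the transmitter receptors, Gabra5, a GABA-A subunit enriched in hippocampus, had 0.367, Gabrd 0.333, Gabrg1 0.281 and Grm7, a metabotropic glutamate receptor, 0.246. The Grm7 value is that of a 203-base 3′UTR of a transcript annotated for nonsense-mediated decay. The 1163-base 3′UTR of its protein-coding transcript had 1.351. Of the 9 receptor members, 2 were of transcripts annotated for such decay. Pclo, the presynaptic scaffold Piccolo, gave both members of the vesicle list, with 3′UTRs at 0.273 and 0.286, although the list as a whole had a median of 0.885. Kcnh7, a potassium channel, had 1398 and 1383 CPM in sham and 414 and 438 CPM with miR292sp. Immediate early genes as a list were high, with a median ratio of 2.08, and their 1 member was a short form of Homer1.

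Homer1, a scaffold of the postsynaptic density, showed how 3′UTRs of the same gene could part. Its 676-base 3′UTR (chr13:94136405-94137083, plus strand) had 43.7 and 25.6 CPM in sham and 2.17 and 7.22 CPM with miR292sp, a ratio of 0.135, while 3 other 3′UTRs of the gene, of 4349, 2733 and 217 bases, had 3.13, 3.76 and 1.79. In 118 of 165 genes with a low-ratio 3′UTR and another measured one, the longest low-ratio form was shorter than the longest other form. The median ratios were 0.305 and 0.809, which the rule itself places on either side of the limit. In 48 genes the low-ratio form belonged to a transcript annotated for nonsense-mediated decay, and in 17 the other form did. Across all measured 3′UTRs, 116 of 353 of such transcripts (32.9%) were members against 1034 of 7797 (13.3%) of protein-coding transcripts. Among those with sequence, 22.9% of members and 22.5% of other 3′UTRs overlapped another 3′UTR of their own gene. How reads in such overlaps were counted is not given.

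The low-ratio 3′UTRs had a median length of 916 bases against 1377 for the other measured 3′UTRs, and the share of members fell from 24.2% of 3′UTRs under 100 bases and 26% of those of 100 to 249 bases to 9.46% of those of 4000 bases or more. The sequence could be read for 966 of the 1166 (82.8%) and for 6479 others, against 90.8% of all measured 3′UTRs. Among those with sequence, the median GC content was 42.8% for members and 44.5% for others. A polyadenylation signal in the last 40 bases was in 72.5% against 77.8%. ATTTA, the core of AU-rich elements, was in 65.8% against 74.4%, not weighted to length. Of the 966, 103 (10.7%) held GTGCCTT, the miR-124 match, against 17.7% of other 3′UTRs, and 15.3% of the others weighted to the members' lengths. The miR-125 match CTCAGGG was in 10.9% against 17.3% and 14.7%, and that of let-7, CTACCTC, in 7.35% against 12.1% and 10.3%. GGCACTT, the match to miR-292, a miRNA absent from brain, was in 7.56% against 11.0% and 9.04%, lower in the same way as the matches of miRNAs that brain expresses. The match to miR-21, ATAAGCT, was the other way round, in 9.94% against 8.49% and 6.96%. Those of miR-128 (CACTGTG, 18.5% against 25.1% and 21.2%) and miR-9 (ACCAAAG, 12.0% against 15.8% and 13.1%) were lower, while those of miR-219 (GACAATC, 5.49% against 5.25% and 4.35%) and miR-338 (ATGCTGG, 14.8% against 15.8% and 13.0%), both known from oligodendrocytes, were above the length-weighted share. Motifs were searched on the strand of the transcript, each on its own where they overlapped. A match is a description of the letters and not a site shown to be bound.

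**Figure D4:**
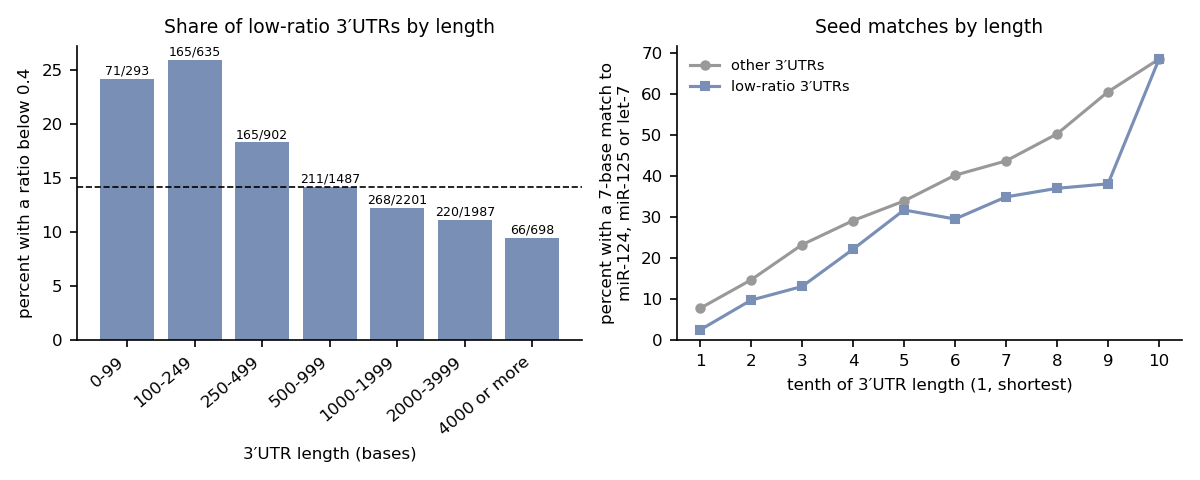
Left, share of 3′UTRs that were low-ratio (y axis, percent) by 3′UTR length (x axis, bases). Right, share of 3′UTRs with a match for miR-124, miR-125 or let-7 (y axis, percent) by length in 10 bins of equal size (x axis), for members and others. Members are below the others in 9 of the 10 bins and level with them, at 68.6%, in the longest.

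With either sponge the low-ratio 3′UTRs stood between miR292sp and sham. They took 14.6% and 15.3% of the counts with miR124sp and 12.6% and 13.4% with miR125sp, where miR292sp had 6.28% and 6.66%. Relative to sham their median ratio was 0.611 with miR124sp and 0.551 with miR125sp, against 0.944 and 0.932 for all 3′UTRs. Relative to miR292sp it was 2.03 and 1.79, against 1.02 and 1.03. Of the 1166, 1090 (93.5%) were higher than miR292sp in both sponge groups, against 42.5% of all, and 1099 (94.3%) were below sham in both, against 47% of all. These ratios share libraries with the rule and are given without a test. On the Gapdh scale the medians relative to miR292sp were 1.01 with miR124sp and 1.03 with miR125sp, with 52.4% and 56.1% of members above 1, while all 3′UTRs had 0.511 and 0.593. The difference between miR292sp and the sponges thus appeared as higher low-ratio 3′UTRs on the scale of library totals and as lower other 3′UTRs on the Gapdh scale.

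The highest ratios to miR292sp in the mean of the 4 sponge libraries were those of Pcgf3 (11.8-fold), Ttr (10.5-fold), Capn7 (5.51-fold), 0610037L13Rik (5.06-fold) and Galnt4 (5.01-fold). Of these, Galnt4 fell to 2.11-fold and Ttr to 7.00-fold without miR125sp replicate 1, and Pcgf3 to 7.05-fold without miR125sp replicate 2. The lowest were Gm11744 (0.617), 6430550D23Rik (0.804), Sdhd (0.827), a subunit of succinate dehydrogenase, Eif2a (0.838) and Nkd1 (0.862). Below 0.4 of sham were 141 members with miR124sp, 224 with miR125sp and 66 with both, of 205 and 303 such 3′UTRs among all 8203 with miR124sp and miR125sp.

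In whole hippocampus the genes of low-ratio 3′UTRs were expressed at somewhat lower levels than others. Over the 6 GFP mice their median was 10.6 CPM per kb of transcript against 13.7 for all measured 3′UTRs. Among genes with 1 RefSeq transcript, whose counts are not split, it was 16.1 against 20.6, and the share of members went from 18.8% among the lowest mRNA levels over 13.4%, 12.8% and 11.2% to 10.8% among the highest, in 5 bins of equal size. The log2 ratio of sham CPM per kb of 3′UTR to mRNA CPM per kb of transcript was 2.51 for members and 1.46 for all, and that of miR292sp 0.79 and 1.43. Set against mRNA level, the members were thus high in the sham precipitate as well as low with miR292sp. The rule uses both RIP levels, so this is a description.

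The mRNA comparisons used other animals and are independent of the rule. With AAV5-GFP.miR124sp against AAV5-GFP, edgeR's quasi-likelihood test was run on 919 genes of low-ratio 3′UTRs, and 94 were higher (10.2%) and 143 lower (15.6%). The background was 12.6% higher and 10.7% lower among all genes tested, and 15.9% and 11.5% among genes with a measured 3′UTR. The median log2 fold change was −0.07 for members and −0.01 for all. With AAV5-GFP.miR125sp 0 of 913 were higher and 3 lower, where the background was 0.0554% higher and 0.15% lower among all genes, and 0.0922% and 0.138% among genes with a measured 3′UTR. These were Aqp4 (log2 fold change −0.35, standard error 0.06, adjusted p = 0.0468), Rbm28 (−0.30, 0.05, 0.0357) and Ylpm1 (−0.26, 0.04, 0.0422). At an unadjusted p below 0.05 were 141 members in that experiment (15.4%, against 13.1% of all), DESeq2 called 4 higher and 15 lower, beside 0.562% of all genes in each direction, and with the 12 mice in 1 fit 0 were called in either direction. Aqp4 had 64.5, 67.0 and 76.4 CPM per kb in the GFP mice and 53.3, 54.6 and 53.7 with miR125sp, which do not overlap. Rbm28, a protein of the nucleolus, had 19.8, 19.6 and 20.2 against 15.6, 16.3 and 16.0, but 16.5, 16.8 and 15.6 in the GFP mice of the miR-124 experiment. Against those mice Ylpm1 turned to 0.35 (adjusted p = 0.000984, edgeR).

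The GFP mice of the miR-124 experiment differed from those of the miR-125 experiment, which got the same vector. In that comparison 246 of the members' genes were higher (26.6%) and 144 lower (15.6%), and the background was 16.3% in each direction. The calls named for miR124sp are therefore given against both controls. Against the GFP mice of the miR-125 experiment, 31 members were higher and 25 lower with miR124sp, beside 2.97% and 2.73% of all genes. What sets the GFP groups apart was not tested.

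Genes of oligodendrocytes and myelin rose with miR124sp against either control. Of the 11 members tested, 8 were higher and 0 lower, with a median log2 fold change of 0.59. In the whole list 15 of the 22 tested genes were higher, beside 12.6% of all genes. Against the other GFP mice 8 of 11 were again higher, with a median of 0.63. There it was 17 of 23 of the whole list, beside 2.97% of all genes. With miR125sp 0 of 11 changed, with a median of −0.04. Cldn11, claudin 11 of myelin, had 94.8, 87.8 and 85.8 CPM per kb in the GFP mice and 173, 148 and 131 with miR124sp. In the other experiment it had 106, 64.9 and 90.6 in GFP mice and 96.1, 77.2 and 80.0 with miR125sp. The miR124sp mice lay above all others (log2 fold change 0.79, standard error 0.10, adjusted p = 0.00368). Ugt8a, which makes the galactolipids of myelin, had 25.8, 23.6 and 23.9 against 39.7, 35.3 and 32.6 (0.59, 0.08, 0.00394). Mal had 7.20, 5.83 and 6.36 against 12.6, 9.28 and 9.23 (0.72, 0.13, 0.00668), and Ermn (0.51, 0.11, 0.0109) and Gjc3 (0.38, 0.12, 0.0396) rose as well. Against the other GFP mice the log2 fold changes were 0.78 for Cldn11 (adjusted p = 0.0111, edgeR), 0.50 for Ugt8a (0.0159), 0.80 for Mal (0.00683), 0.51 for Ermn (0.0364) and 0.63 for Gjc3 (0.0126). Gpr17, of the precursors, had 0.10 against its own control (adjusted p = 0.479, edgeR).

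**Figure D5:**
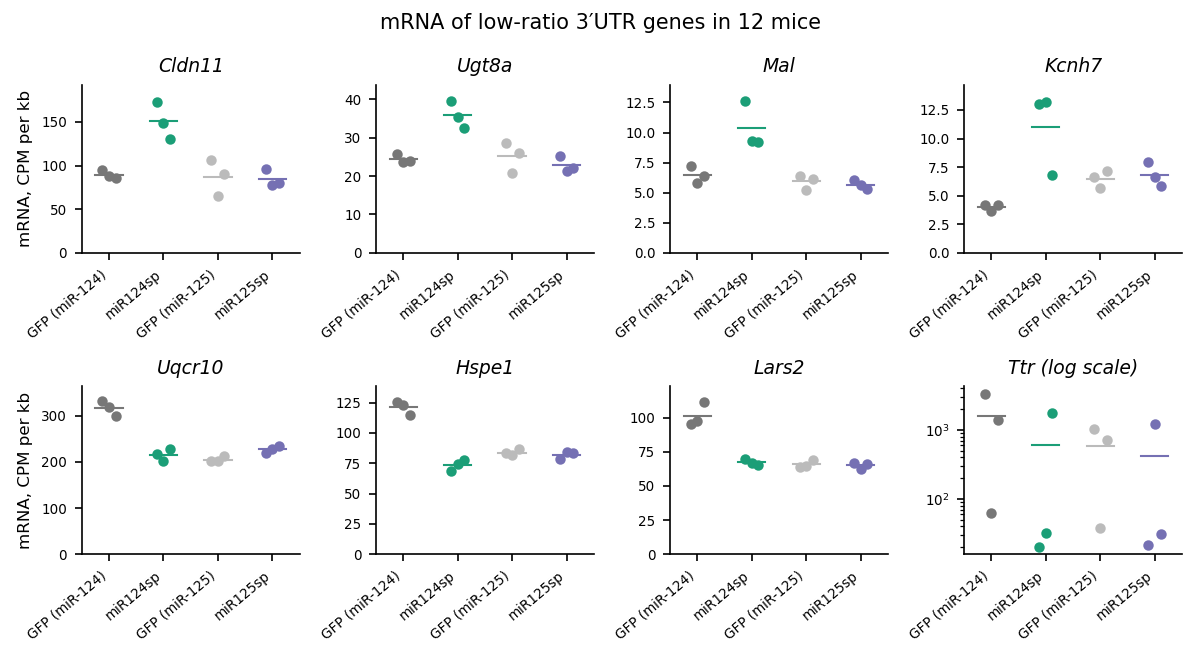
mRNA level (y axis, CPM per kb of transcript, linear from 0 except where the panel is marked as log) in each of the 12 mice, by group, for selected genes of low-ratio 3′UTRs, one point per mouse, with lines at group means. In Cldn11 the 3 miR124sp mice lie above all others, while in Uqcr10 the 3 GFP mice of the miR-124 experiment do.

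Members of 5 other lists, given here as examples, were lower with miR124sp against its own control and not against the other GFP mice. Of all genes tested, 10.7% were lower against its own control and 2.73% against the other. Between the GFP groups 16.3% were higher. Further lists also had lower members against its own control, such as antioxidant and glutathione enzymes (3 of 3), proteasome subunits (2 of 4) and solute carriers (5 of 22, 1 higher). Zinc finger protein genes had 0 of 34 and splicing factors 0 of 9. Of the 14 members of oxidative phosphorylation tested, 12 were lower with miR124sp, with a median of −0.45, but 0 of 14 against the other GFP mice, with a median of 0.06, and 13 of 14 were higher in the GFP mice of the miR-124 experiment than in the other GFP mice. Uqcr10 had 331, 320 and 300 CPM per kb in the former, 217, 203 and 227 with miR124sp, and 202, 202 and 213 in the latter. Its log2 fold change was −0.52 (standard error 0.07, adjusted p = 0.00368) and turned to 0.06 with the other control. Members of the mitochondrial ribosome (7 of 11 lower), the cytosolic ribosome (3 of 3), astrocytes (3 of 7) and microglia (3 of 5) likewise had 0 lower against the other GFP mice. Hspe1, the mitochondrial co-chaperonin, had 125.5, 122.9 and 115 against 68.7, 74.7 and 77.4 with miR124sp (−0.68, 0.07, 0.00368), and 83.1, 81.7 and 86.4 in the other GFP mice. Slc1a3 fell by 0.43 on the log2 scale (adjusted p = 0.00985), with 382, 417 and 371 CPM per kb in its GFP mice, 271, 287 and 287 with miR124sp, and 264, 299 and 275 in the other GFP mice, so that only the first group stood apart. Lars2 had 95.2, 97.4 and 112 against 69.7, 67.0 and 65.02 (−0.55, 0.09, 0.00431), and 63.7, 64.7 and 68.7 in the other GFP mice. Gabrg1 (−0.83, 0.07, 0.00368), Scrg1 (−0.75, 0.09, 0.00368) and Tmem126a (−0.64, 0.08, 0.00368) were the others of lowest p among those that fell. Against the other GFP mice Tmem126a was still lower (−0.34, adjusted p = 0.0210, edgeR), while Hspe1 (−0.20, 0.0744), Gabrg1 (−0.22, 0.0944), Scrg1 (−0.15, 0.302), Slc1a3 (0.01, 0.965) and Lars2 (0.03, 0.865) did not pass.

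Of single members that rose, Kcnh7 had 4.19, 3.66 and 4.18 CPM per kb in the GFP mice, 13.0, 13.2 and 6.81 with miR124sp, and 6.63, 5.68 and 7.15 in the other GFP mice (log2 fold change 1.5, standard error 0.22, adjusted p = 0.00412). Its lowest miR124sp mouse overlapped the other GFP mice. Wfs1, an endoplasmic reticulum protein, rose by 0.71 (0.10, 0.00394) and Slc35f1 by 0.69 (0.10, 0.00404). Against the other GFP mice Kcnh7 had 0.74 (adjusted p = 0.0441, edgeR), while Wfs1 (0.41, 0.219) and Slc35f1 (0.18, 0.242) did not pass. Clip3 had 157, 165 and 170 against 233, 232 and 204 (0.48, 0.09, 0.00745), but 232, 249 and 226 in the other GFP mice (−0.08, adjusted p = 0.527). The difference between the effects of the sponges, tested as an interaction over the 12 mice, was higher for 74 of 926 members (7.99%) and lower for 93 (10.0%), beside 7.42% and 7.06% of all genes and 10.2% and 8.39% of genes with a measured 3′UTR.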

How the data were processed

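RIP-seq counts per 3′UTR and mRNA-seq counts per RefSeq transcript were deposited by the authors as whole numbers, not normalised. The sample labels name STAR, edgeR and mm10, while the methods give mm9 and DESeq (mRNA-seq). No source used here states the counting program or its use of strand, so a gene cannot be told apart from an overlapping antisense gene (Ctsz and Kcnh7 have one). Names, coordinates and sequences came from GENCODE M1 on NCBIM37 (mm9), where 98.0% of the 3′UTRs had a name. Of the mRNA transcripts, 98.7% had a symbol, those without one held 0.85% of the counts and were left out, and counts were summed per symbol. How reads of genes with several transcripts were counted is not given, so their levels are uncertain (Slc1a2 and Mal among them).

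CPM used column totals. Tests were edgeR 4.0.16 (quasi-likelihood, TMM) in R 4.3.3 at a Benjamini-Hochberg adjusted p below 0.05, in 1 fit for the 8 RIP libraries and on its own 6 mice, after filterByExpr, for each mRNA experiment, with the interaction over 12 mice. Values in parentheses after a first triplet are the log2 fold change, its standard error and the adjusted p. DESeq2 1.42.0 was an alternative. Python 3.11.15, numpy 2.4.6, pandas 2.3.3, pysam 0.24.0 and matplotlib 3.10.9 were used. Scripts were tested on simulated data. P-values measure the spread between pools of hippocampi in the RIP and between mice in the mRNA. Counting error and the spread of 2 libraries limit the precision of the RIP values.

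The members and lists were chosen with earlier results of these data known. Named are the 10 members of lowest ratio, the 10 of highest sham CPM, up to 6 members and 2 other markers per cell type list and 3 members per function list by sham CPM, the 3 on each side of the limit, the 5 of lowest p per direction and comparison, the 5 with the largest sham difference, and the 5 highest and 5 lowest over miR292sp. Alternatives were other scalings, limits, filters, controls and tools, and leaving out each library. Some items that this rule selects are not reported here.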

Additional observations from a re-analysis of the deposited data

Results flagged for a closer look

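The effects of the sponges on mRNA differed for some genes by the interaction over 12 mice (edgeR, adjusted p below 0.05). Of the 926 genes of low-ratio 3′UTRs tested, 74 (7.99%) were higher and 93 (10.0%) lower with miR124sp than with miR125sp. The shares were 7.42% and 7.06% of all genes, and 10.2% and 8.39% of genes with a measured 3′UTR. For the genes named below, the adjusted p of this edgeR test ran from 0.000995 to 0.0467. The GFP groups of the experiments themselves differed, and the values below include that difference. What sets them apart was not tested.

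Higher, in log2 units, were the myelin genes Cldn11 (0.81), Mal (0.76), Ugt8a (0.71), Ermn (0.66) and Gjc3 (0.53), and Kcnh7 (1.42), Pakap (0.64), Nf1 (0.61), Ylpm1 (0.61), Pclo (0.56), Slc35f1 (0.54), Disp2 (0.54), Pcdhb16 (0.53), Clip3 (0.52), Ncoa6 (0.48), Ctsz (0.46) and Secisbp2l (0.36). Pakap is the symbol in the mRNA table of the gene whose 3′UTR is named Palm2.

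Lower were genes of the respiratory chain and the ATP synthase, Atp5j2 (−0.69), Uqcr10 (−0.69), Cox4i1 (−0.67), Uqcrh (−0.61) and Atpif1 (−0.57), those of ribosomes and translation, Rpl9 (−0.68), Rps28 (−0.67), Mrpl41 (−0.60), Lars2 (−0.56), Eif3k (−0.54), Rps13 (−0.53) and Mrpl50 (−0.45), and Rab26 (−0.96), Gabrg1 (−0.82), Scrg1 (−0.76), Hspe1 (−0.68), Gsta4 (−0.63), Tmem126a (−0.46), Fahd2a (−0.44), Prkra (−0.44), Psmb6 (−0.44), Slc1a3 (−0.38) and Sod1 (−0.30).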

How the results depend on the processing

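The number of low-ratio 3′UTRs was 1018 with TMM library sizes, 838 with 20 counts in each library and 1084 to 1379 without 1 library, but 21 on the Gapdh scale, 2449 with 1 count in each library, 495 at a limit of 0.3 and 1908 at 0.5. On the Gapdh scale the sponge medians were 0.832 (miR124sp over sham), 1.01 (over miR292sp), 0.862 (miR125sp over sham) and 1.03 (over miR292sp). The 1 member lower in miR124sp than miR125sp, Ttr, was 0 without any 1 of the 4 libraries. For mRNA, 31 members were higher and 25 lower with miR124sp against the other GFP mice. These were 3.35% and 2.70%, beside 2.97% and 2.73% of all genes. The headers of 8 mRNA libraries hold an unexplained mark. With the header mark as a term they were 53 and 59 (5.77% and 6.42%, beside 6.40% and 4.80% of all genes). Without 1 mouse 26 to 131 were higher (2.83% to 14.25%, beside 3.42% to 15.8% of all genes). Lower were 60 to 172 (6.53% to 18.7%, beside 4.24% to 15.2%). They were lowest without miR124sp replicate 2. With miR125sp they were 4 and 15 with DESeq2 (0.438% and 1.64%, beside 0.562% of all genes in each direction). Without a filter they were 5 and 17 (0.494% and 1.68%, beside 0.490% and 0.648%). The header mark gave 3 and 1 (0.329% and 0.1095%, beside 0.214% and 0.277%). Against the GFP mice of the miR-124 experiment they were 124 and 305 (13.4% and 32.9%, beside 16.7% and 18.6%). With 12 mice in 1 fit they were 0 and 0 (beside 0.0151% and 0.0302%). Leaving out 1 mouse gave 0 to 2 and 0 to 5 (beside up to 0.467% and 0.388%). The interaction had 23 and 39 with the header mark (2.48% and 4.21%, beside 2.47% and 2.71% of all genes). The median mRNA level of members was 0.776 of that of all, and 0.728 in CPM not divided by length. With the other GFP mice Uqcr10 turned to 0.06, Rbm28 to 0.01 and Ylpm1 to 0.35. The cause was not tested. For the genes named for the lowest p in a comparison, 163 values under alternatives kept direction and call, 29 lost the call and 3 reversed. The other named genes are not in this count.

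No paired analysis was possible because the groups compared share fewer than 2 replicate numbers.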
